A study of Mus musculus with 178 samples.

Results

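The T cell receptor variable genes were followed in RNA-seq of whole blood from mice that carried oral tumors and were treated with an antibody against PD-1, an inhibitory receptor of T cells. The members are all genes of the count table whose symbol starts with Trav, Trbv, Trgv or Trdv, the variable genes of the alpha, beta, gamma and delta chain, and they number 170 of 55450 genes in all. Of these, 128 are Trav, 35 are Trbv, 6 are Trdv and 1 is Trgv. The rule uses symbols alone.

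All 178 libraries came from 45 C57BL/6J mice, young adults of both sexes, into whose tongue or buccal mucosa 4MOSC1 cells had been injected. 4MOSC1 is a cell line of oral squamous carcinoma induced in mice by a carcinogen, and every mouse thus carried a tumor of 1 line. Every mouse was also treated with anti-PD-1 (clone RMP1-14) after the bleed of Day 4, so that no untreated or tumor-free mice stand beside them, and treatment and time since tumor implantation cannot be told apart. Responders gave 15, 15, 14 and 15 libraries on Days 4, 9, 17 and 24, and non-responders gave 29, 30, 30 and 30. The mice are the replicates, and the label of the Day 17 library of non-responder 24 alone among the labels of that mouse says responder and is kept here as a non-responder library.

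A T cell receptor chain is assembled in the thymus by joining a variable gene to a joining segment, in beta and delta chains with a diversity segment between them, and the joined unit is spliced to a constant region. Each T cell clone carries 1 such beta chain, so that in blood the RNA of the variable genes is a sum over many clones. Most T cells of mouse blood carry alpha and beta chains, and a minority carry gamma and delta chains. In bulk blood, fewer T cells and less receptor RNA per T cell cannot be told apart.

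Total counts per library ran from 26058957.99 to 82208664.9 with a median of 51971364.99, and haemoglobin genes held 80.7% ± 4.07 of them (SD, n = 178). The variable genes together held 90727.24 counts over all libraries, of which 58889.38 were Trbv, 29425.86 Trav, 1613 Trdv and 799 Trgv. A library held 14 to 537 Trav counts (mean 165 ± 87.9 SD) and 10 to 999 Trbv counts (mean 331 ± 163 SD). Both lowest values belonged to the Day 24 library of non-responder 29, which stood apart from all others. Per 1000000 non-haemoglobin counts, a scale called non-haemoglobin CPM here, the Day 4 means in responders and non-responders were 68.4 and 88.8 for Trac, 54.8 and 75.4 for Cd3e and 10.6 and 12.5 for Trdc. Ptcra, the pre-T cell receptor chain of thymocytes, had Day 4 means of 0 and 0.00576 and a median of 0 in both groups on all 4 days.

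In all, 146 of the 170 genes had a count in at least 1 library. The 24 without any count were all annotated as pseudogenes. They were 12 Trav (Trav12-4, Trav15-3, Trav15n-3, Trav22, Trav3-2, Trav3d-2, Trav3n-2, Trav4-1, Trav5d-2, Trav5d-3, Trav5n-2 and Trav5n-3), 11 Trbv (Trbv10, Trbv11, Trbv18, Trbv22, Trbv25, Trbv27, Trbv28, Trbv6, Trbv7, Trbv8 and Trbv9) and Trdv3. Each of the 136 genes annotated as a variable gene had a count. The other 10 annotated pseudogenes with counts held 0.376% of the counts of all members, led by Trbv24 with 192 counts in 109 libraries.

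The 6 Trbv genes with the highest mean share of beta counts are given by the last 60 bases of their annotated coding sequence, together with Trbv13-2 and Trav11d, which are used by invariant natural killer T cells, and with Trdv4 and Trgv2, because this is the end at which a variable gene is joined. Capitals run from the first in-frame cysteine codon within the last 30 coding bases to the end, the stretch that opens the third complementarity-determining region. Such a codon was found in all 108 Trav, 22 Trbv, 5 Trdv and 1 Trgv genes annotated as variable genes and not as pseudogenes. Of these Trbv genes, 21 had a coding sequence without a stop codon, and that of Trbv4 held 1. The sequences are those of the GENCODE M21 transcripts of GRCm38 (mm10), 5′ to 3′ on the strand of the gene. Trbv3 lies at chr6:41048290-41048828 (+), Trbv1 at chr6:40891229-40891885 (+), Trbv19 at chr6:41178375-41179048 (+), Trbv2 at chr6:41047340-41047995 (+), Trbv16 at chr6:41151740-41152230 (+), Trbv31 at chr6:41557691-41558452 (−), Trbv13-2 at chr6:41121396-41121832 (+), Trav11d at chr14:52824357-52824912 (+), Trdv4 at chr14:54074905-54075515 (+) and Trgv2 at chr13:19336573-19337167 (−).
Trbv3: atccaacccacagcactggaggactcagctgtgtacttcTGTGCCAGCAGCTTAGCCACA
Trbv1: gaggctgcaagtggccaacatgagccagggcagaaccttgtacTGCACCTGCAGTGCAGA
Trbv19: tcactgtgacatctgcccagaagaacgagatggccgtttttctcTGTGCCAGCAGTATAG
Trbv2: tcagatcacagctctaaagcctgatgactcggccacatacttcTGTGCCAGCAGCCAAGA
Trbv16: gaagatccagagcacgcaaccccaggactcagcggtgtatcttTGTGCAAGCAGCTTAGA
Trbv31: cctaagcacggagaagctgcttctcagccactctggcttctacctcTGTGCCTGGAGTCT
Trbv13-2: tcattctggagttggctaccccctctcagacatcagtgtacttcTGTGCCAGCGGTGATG
Trav11d: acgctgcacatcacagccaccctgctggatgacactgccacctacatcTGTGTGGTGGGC
Trdv4: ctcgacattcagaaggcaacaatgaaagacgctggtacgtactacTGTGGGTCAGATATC
Trgv2: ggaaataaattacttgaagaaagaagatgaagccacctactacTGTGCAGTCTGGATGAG

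Counts of the Trbv genes were spread over many genes with 1 in the lead. Trbv3 held 12.9% ± 2.27 of the Trbv counts of a library (SD, n = 178; lowest 7.01%, highest 19.2%) and was the leading Trbv gene in 158 of 178 libraries. Trbv1 followed with 7.88% ± 1.88, Trbv19 with 7.80% ± 2.05, Trbv2 with 6.76% ± 2.21, Trbv16 with 6.04% ± 2.49, Trbv31 with 5.87% ± 1.90, Trbv13-1 with 5.80% ± 1.86 and Trbv5 with 5.56% ± 1.83. The gap from Trbv3 to Trbv1 was larger than either SD, whereas each later neighbour in this order differed from the one before it by less than their SD. Over all libraries, 7 genes held 53.1% of the Trbv counts and 20 genes held 99.5%.

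The order changed per transcript length. In TPM, which divides counts by transcript length and library size, Trbv3 stood at 1.84 ± 0.95 (SD, n = 178), Trbv13-2 at 1.70 ± 0.88, Trbv13-1 at 1.51, Trbv5 at 1.44, Trbv1 at 1.44 and Trbv29 at 1.41, and these levels lay within 1 SD of each other. Trbv19, whose transcript is 566 bases long, ranked 14 at 0.705 TPM, and Trbv2, at 560 bases, ranked 17 at 0.609 TPM.

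**Figure D1:**
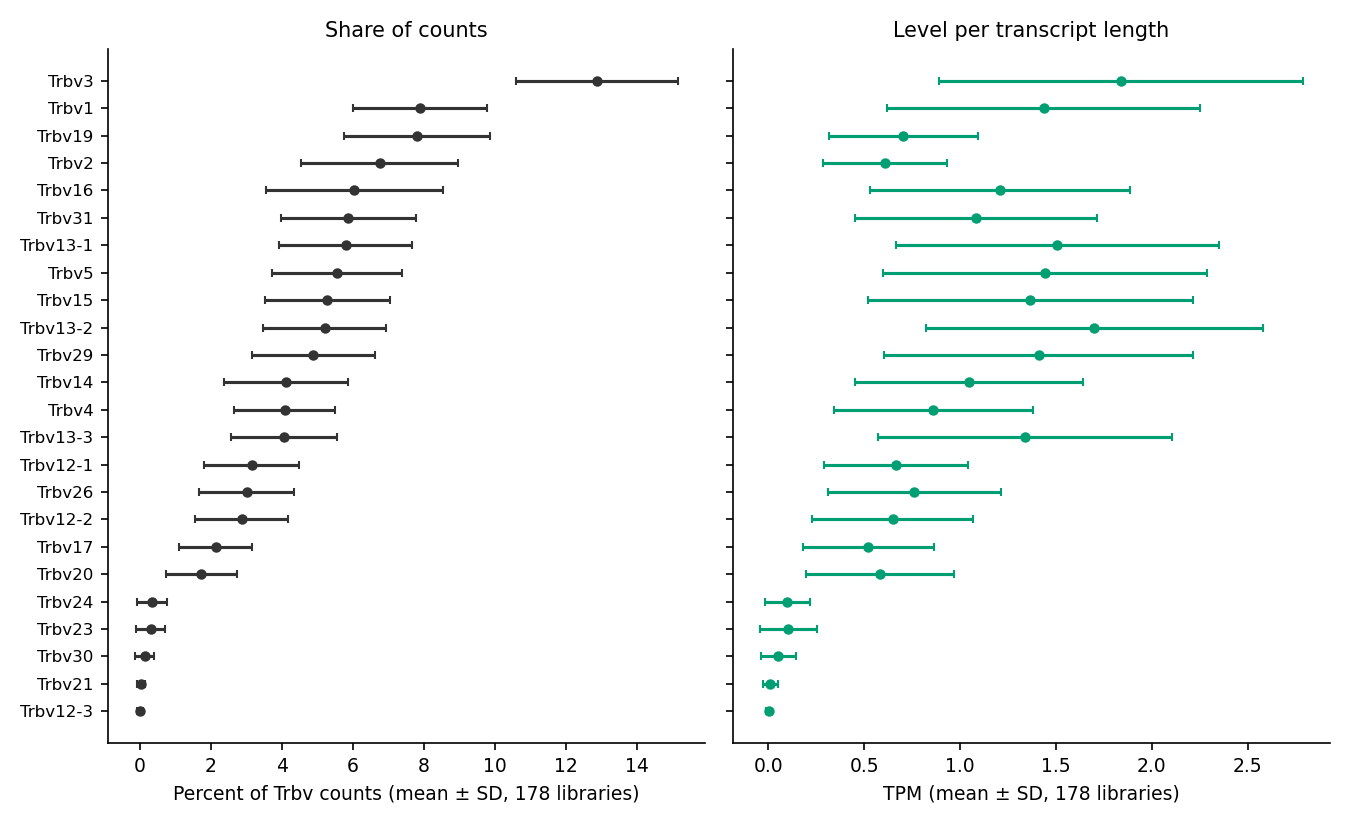
Share of the Trbv counts (left, percent) and level per transcript length (right, TPM) of each Trbv gene with a count, as mean and SD over 178 libraries in the order of the share. Trbv3 leads on both scales (12.9% and 1.84 TPM), while Trbv19 and Trbv2 stand high by share and low per length (0.705 and 0.609 TPM).

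The Trav counts were thinner and spread more widely. The leading genes by mean share were Trav14d-1 and Trav14n-1 with 3.08% each, Trav7-4 with 2.73%, Trav3-3 with 2.68%, Trav12-2 with 2.51%, Trav6-7-dv9 with 2.51%, Trav9-2 with 2.47% and Trav10 with 2.43%, each with an SD of 1.4 or more, so that their order is not resolved. This order takes Trav14d-1 and Trav14n-1 as separate genes, although shared reads were split equally between them. It took 23 genes to reach 50.2% of the Trav counts. Among the 23 numbered families, 22 had a count, and Trav14 held 19.4%, Trav6 12.2%, Trav7 10.5%, Trav12 10.0% and Trav9 9.85% of the Trav counts. Per length, Trav14-2 led with 0.345 ± 0.316 TPM, followed by Trav6-7-dv9 with 0.282 ± 0.205 TPM, both below 0.5 TPM.

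All 128 Trav genes lie on the plus strand of chr14:52427928-53977678, a locus whose middle was duplicated in mice, as the letters d and n in the symbols mark. Genes without a letter held 53.1% of the Trav counts, d genes 25.0% and n genes 21.9%. With the locus split into 3 stretches of equal length, the one nearest to the joining segments held 45.9% of the counts with a mean of 355 counts per gene with a count, the middle one 36.9% with 226 and the far one 17.3% with 169. These are sums over all libraries, and the split between copies rests on the counting of shared reads.

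That counting could not separate every copy. Among the Trav genes, 34 fall into 17 pairs with identical transcripts, which held 27.8% of the Trav counts, and in all 15 pairs that had a count the deposited counts were split equally to within 0.05 counts. The value given for each such gene is therefore an equal part of what its pair held. Trav14d-1 and Trav14n-1, for example, had 874.21 counts each and 1748.42 together. In all, 70 Trav genes share at least 95% of their bases with the nearest other member. The leading pair shows this over bases 70 to 149 of the coding sequence, printed with its nearest relative, where capitals mark the bases that differ between Trav14-1 and the pair (7 here, 16 of 364 in the whole coding sequence). Trav14n-1 lies at chr14:53166626-53167178 (+), Trav14d-1 at chr14:52855614-52856166 (+) and Trav14-1 at chr14:53554022-53554558 (+), GRCm38.
Trav14n-1: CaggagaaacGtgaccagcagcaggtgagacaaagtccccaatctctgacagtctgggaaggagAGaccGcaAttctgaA
Trav14d-1: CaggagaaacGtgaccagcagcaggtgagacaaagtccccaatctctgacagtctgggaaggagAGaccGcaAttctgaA
Trav14-1: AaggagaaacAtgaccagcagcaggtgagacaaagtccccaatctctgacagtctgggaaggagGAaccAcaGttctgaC

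Gamma and delta variable genes were rare. Trgv2 had a count in 168 of 178 libraries and 799 counts in all, between 0 and 22 per library. Of the Trdv counts, Trdv4 held 43.8% (706 counts in 157 libraries), Trdv2-2 25.9% (128 libraries), Trdv5 19.3% (124 libraries) and Trdv1 9.86% (85 libraries), and Trdv2-1 had 19.85 counts in 11 libraries. Per length Trdv4 stood at 0.187 TPM, Trgv2 at 0.164 TPM and Trdv2-2 at 0.144 TPM, near the levels of single Trav genes. In 4 libraries no Trdv count was present, which allows up to 3 counts. Trav11, Trav11d and Trav1, the last used by mucosal-associated invariant T cells, had 8 counts in 4 libraries, 104 in 58 and 99 in 61. Intervals and limits from counts cover counting error only.

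The summed level of each chain was compared across days and between the response groups as a description, in non-haemoglobin CPM. On this scale Trav and Trbv were highest on Day 4 and lowest on Day 9 in both groups. In responders Trav stood at 19.0 ± 5.74 on Day 4 (SD, n = 15; lowest 9.81, median 17.8, highest 28.3), 11.6 ± 3.24 on Day 9 (n = 15), 16.2 ± 6.14 on Day 17 (n = 14) and 12.8 ± 3.69 on Day 24 (n = 15). In non-responders the values were 23.8 ± 4.52 (n = 29; lowest 16.3, median 24.1, highest 33.4), 13.9 ± 3.01 (n = 30), 15.0 ± 4.40 (n = 30) and 14.3 ± 3.64 (n = 30). Trav was lower on Day 9 than on Day 4 in 13 of 15 responders and 28 of 29 non-responders, at 0.610 and 0.584 of the Day 4 mean. Which of the later days was lowest in non-responders depended on the scale: as deposited TPM their summed Trav stood at 18.9, 11.2, 9.22 and 9.42 and their Trbv at 33.3, 20.3, 18.4 and 19.3 on Days 4, 9, 17 and 24, lowest on Day 17, and as CPM of all counts Trav stood at 5.35, 3.09, 2.81 and 2.73 and Trbv at 9.78, 5.89, 5.95 and 5.78, lowest on Day 24. In responders Day 9 was lowest on both of these scales, and Trbv as CPM of all counts was about as high on Day 17 (6.80) as on Day 4 (6.77).

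Trbv ran in parallel at about double the level. Responders held 37.8 ± 12.3, 24.1 ± 5.72, 37.7 ± 15.9 and 26.9 ± 7.02 on Days 4, 9, 17 and 24, and non-responders 43.5 ± 8.41, 26.5 ± 5.62, 31.9 ± 9.95 and 30.6 ± 7.85. Trbv was lower on Day 9 than on Day 4 in 13 of 15 responders and 27 of 29 non-responders. On the scale of non-haemoglobin CPM it was higher on Day 17 than on Day 9 in 12 of 14 responders and 22 of 30 non-responders. On Day 17 responders spread widely, from 18.9 over a median of 30.2 to 66.5, and in 8 of 14 the value was below that of Day 4, against 24 of 29 non-responders. On every day the ranges of the response groups overlapped. Without the library of non-responder 29 the non-responders' Day 24 means were 14.8 ± 2.90 for Trav and 31.6 ± 5.74 for Trbv.

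**Figure D2:**
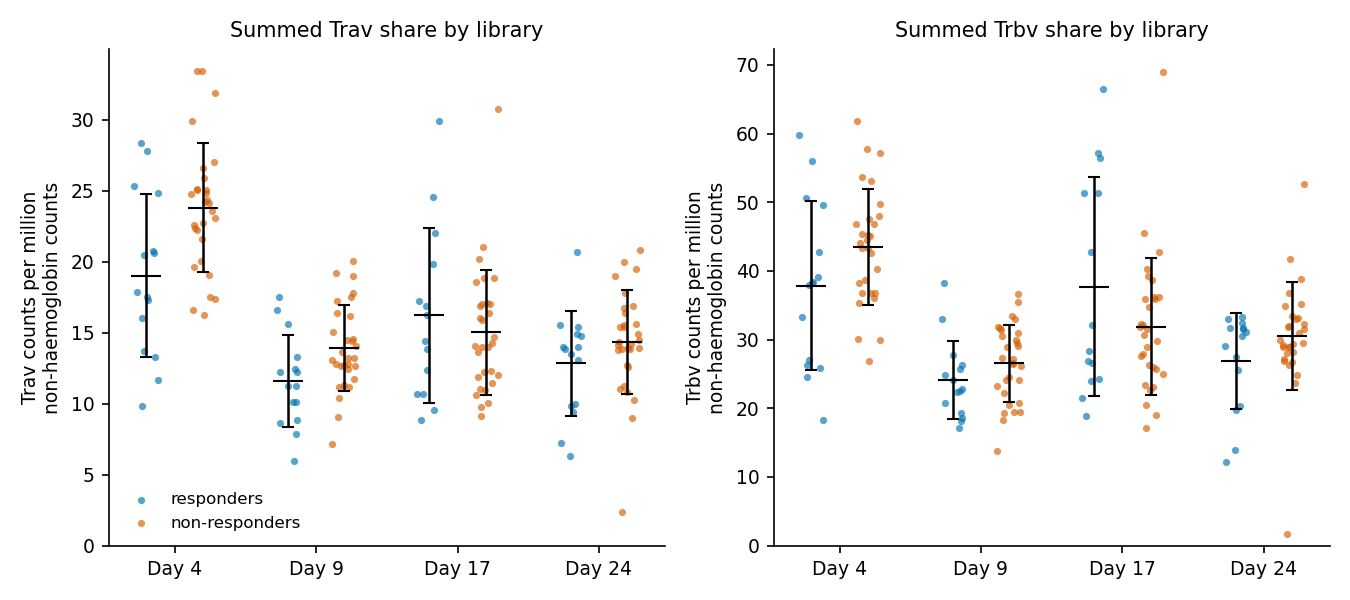
Summed Trav counts (left) and Trbv counts (right) per 1000000 non-haemoglobin counts, by day and response; each point is a library, with the mean and SD of its group. On this scale both chains are highest on Day 4 and lowest on Day 9 in both groups, the groups overlap on each day, and the lowest point on Day 24 is the library of non-responder 29.

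The ear tags of the mice fall into a 3-digit and a 4-digit series, with 11 of 15 responders and 7 of 30 non-responders in the second. The responders' mean on Day 17 differed between the series, a difference that was not tested. On Day 17 Trbv stood at 51.7 ± 17.3 in 3-digit responders (n = 4) against 31.7 ± 10.7 in 3-digit non-responders (n = 23), and at 32.1 ± 12.1 in 4-digit responders (n = 10) against 32.2 ± 7.57 in 4-digit non-responders (n = 7). Trav of the 3-digit responders was higher on Day 17 (23.2 ± 5.68) than on Day 4 (19.1 ± 7.67), while in the 4-digit responders it was lower (13.4 ± 3.66 against 19.0 ± 5.33). The higher Day 17 mean of responders was thus present within the 3-digit series alone, on 4 mice. On Day 4 the Trbv means were 39.0 and 45.5 within the 3-digit series and 37.4 and 37.2 within the 4-digit series, responders first.

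Which response group stood higher before and early in treatment depended on the denominator. In non-haemoglobin CPM the responders' Trav mean was 0.799 of the non-responders' on Day 4, whereas in TMM-scaled CPM (counts per 1000000 of a library size that edgeR scales by the bulk of genes) it was 4.05 ± 0.76 against 4.04 ± 1.03, a ratio of 1.00. For Trbv the ratio was 0.870 on the first scale and 1.09 on the second on Day 4, and 0.908 and 1.16 on Day 9. Haemoglobin took 83.0% ± 4.12 of the counts of responders and 77.8% ± 5.21 of those of non-responders on Day 4, and 82.7% and 78.2% on Day 9. Its part in these ratios was not tested. The lower level on Day 9 was present with TMM scaling too, where Trav was lower than on Day 4 in 15 of 15 responders and 29 of 29 non-responders, and Trbv in 15 of 15 and 28 of 29. Per count of the constant genes it was small for Trbv in responders, at −0.146 SD on the log2 scale.

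The values of the gamma and delta chains rested on few counts. Trgv2 stood at 0.554, 0.322, 0.611 and 0.343 non-haemoglobin CPM in responders and at 0.575, 0.352, 0.443 and 0.388 in non-responders on Days 4, 9, 17 and 24, with SDs of 0.21 to 0.28. It was lower on Day 9 than on Day 4 in 11 of 15 responders and 24 of 29 non-responders. Trdv stood at 0.877, 0.641, 1.08 and 0.875 in responders and at 1.11, 0.877, 0.880 and 0.715 in non-responders, with SDs of 0.31 to 0.79, and was lower on Day 9 in 10 of 15 and 18 of 29 mice. Its leading gene Trdv4 did not share this direction, with a Day 9 mean of 1.29 times that of Day 4 in responders (lower in 7 and higher in 8 mice) and 1.11 times in non-responders (lower in 13, higher in 15 and equal in 1).

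Other genes of the receptor were set beside the variable genes. The constant genes of the alpha and beta chain together (Trac, Trbc1 and Trbc2) stood at 225, 147, 195 and 186 non-haemoglobin CPM in responders and at 287, 189, 205 and 215 in non-responders, and the CD3 genes, which carry the signal of the receptor into the cell, at 238, 160, 213 and 207 and at 303.5, 202, 218 and 229. By edgeR's quasi-likelihood test (Benjamini-Hochberg adjusted p), all 4 CD3 genes fell from Day 4 to Day 9 in both groups (log2 changes of −0.81 to −0.39 in responders and −0.77 to −0.45 in non-responders), as did all 3 coreceptor genes Cd4, Cd8a and Cd8b1. In the same contrast 27.7% of all genes were called in responders (14.2% lower, 13.5% higher) and 50.8% in non-responders (27.5% lower, 23.3% higher). Of the 7 constant genes tested, 4 fell in responders and 6 in non-responders, Trac by 0.63 ± 0.10 (log2, SE) in responders. Genes of other cells moved in the same interval: of 4 B cell genes 3 fell in responders and 4 in non-responders, and of 5 myeloid genes 2 rose in responders (log2 changes of the list from 0.20 to 2.46) and 5 in non-responders (0.54 to 2.82). Their part in the decline of the variable genes was not tested.

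Set against the constant region of the same chain, the variable genes had a lower mean on Day 9 than on Day 4 in both groups and were lowest, by mean, on Day 24. A variable gene is counted only over its own exons at the 5′ end of the receptor transcript, and the constant gene over the rest. Trbv counts per count of Trbc1 and Trbc2 were 0.242 ± 0.024, 0.234 ± 0.027, 0.259 ± 0.062 and 0.205 ± 0.020 in responders on Days 4, 9, 17 and 24, and 0.220 ± 0.024, 0.199 ± 0.023, 0.217 ± 0.036 and 0.195 ± 0.030 in non-responders. Trav counts per Trac count were 0.281 ± 0.026, 0.276 ± 0.050, 0.304 ± 0.068 and 0.236 ± 0.035 in responders and 0.270 ± 0.030, 0.248 ± 0.028, 0.257 ± 0.051 and 0.245 ± 0.057 in non-responders (0.236 ± 0.031 on Day 24 without the library of non-responder 29, which had the ratio 0.50). Responders thus had the higher mean Trbv ratio on each day, and 14 of 15 responders lay above the non-responders' median on Day 9, with overlapping ranges.

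Within the series of ear tags the Trbv ratio on Day 9 was 0.207 ± 0.015 in responders (n = 4) and 0.201 ± 0.024 in non-responders (n = 23) within the 3-digit series, a difference smaller than both SDs, and 0.243 ± 0.023 (n = 11) and 0.194 ± 0.019 (n = 7) within the 4-digit series. On Day 17 it was 0.266 and 0.212 within the 3-digit series and 0.256 and 0.233 within the 4-digit series. On Day 24 the order turned within the 3-digit series, with 0.193 in responders and 0.201 in non-responders. The responders of Day 17 ran from 0.178 over a median of 0.275 to 0.337, wider than on the other 3 days.

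**Figure D3:**
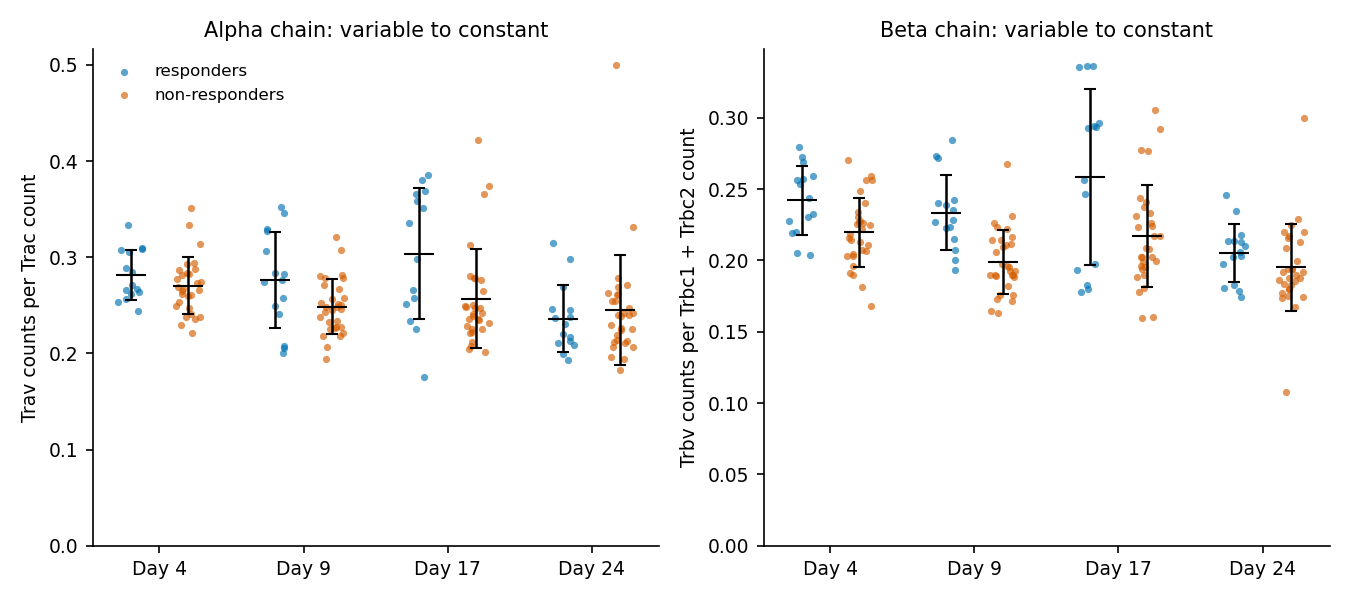
Trav counts per Trac count (left) and Trbv counts per count of Trbc1 and Trbc2 (right), by day and response; each point is a library, with the mean and SD of its group. The Trbv ratio has the higher mean in responders on each day with overlapping ranges, and the Trav point at 0.50 on Day 24 is the library of non-responder 29.

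The number of variable genes detected was taken as deposited and at an equal number of counts. A library held a count for 57.2 ± 13.9, 43.3 ± 13.8, 51.3 ± 13.4 and 55.1 ± 13.0 Trav genes in responders on Days 4, 9, 17 and 24, and for 71.4 ± 10.8, 55.7 ± 9.20, 54.4 ± 11.0 and 54.8 ± 12.5 in non-responders. At an equal depth of 50 Trav counts, which 175 libraries reach, the expected numbers were 32.9, 32.5, 33.3 and 33.8 in responders and 34.3, 33.5, 33.1 and 33.0 in non-responders. These numbers are on a smaller scale than those without thinning. On Day 4 the responders stood 0.97 SD below the non-responders at equal depth, with overlapping ranges. Trbv genes were close to fully detected, with means of 19.7 to 21.2 of 24, and at 100 counts, which 174 libraries reach, the group means lay between 18.8 and 19.2.

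Evenness was measured as Shannon evenness, which is 1 where all genes with a count anywhere hold equal shares, in libraries with at least 50 counts of the chain. Trav evenness was 0.810, 0.777, 0.805 and 0.811 in responders and 0.851, 0.814, 0.809 and 0.812 in non-responders, with SDs of 0.028 to 0.046. These values are not corrected for depth, which differed between the groups, with means of 179 and 95.5 Trav counts on Days 4 and 9 in responders and 280 and 148 in non-responders, and its part in them was not tested. Trbv evenness lay between 0.879 and 0.893 in all 8 groups. The effective number of genes, from a form of the Simpson index that corrects for depth, was 49.9 to 57.8 for Trav and 14.9 to 16.1 for Trbv, and its SDs (6.73 to 11.9 and 0.702 to 1.48) were mostly larger than the difference between the response groups. The difference was above 1 pooled SD for Trav on Day 4 (50.1 ± 8.62 in responders and 57.8 ± 6.73 in non-responders) and for Trbv on Day 17 (16.1 ± 0.702 and 14.9 ± 1.18), with overlapping ranges. From Day 4 to Day 9 the Trav effective number stood at 50.1 and 49.9 in responders and 57.8 and 54.3 in non-responders. For Trgv and Trdv the counts were too few for evenness.

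The variance of single-gene usage was set beside counting error. Over libraries, which come from separate mice and days, the variance of a gene's share of its chain was 1.24 to 2.02 times that expected from counting alone for the 21 Trbv genes with a mean of at least 1 count (median 1.52), lowest for Trbv3 and highest for Trbv2. For 59 Trav genes the ratio ran from 0.675 to 2.61 with a median of 1.37. Genes of identical transcripts entered it singly, as equal parts of shared reads. Such a part varies less than a whole count of its size, so that the Trav and Trbv ratios are not compared. Likeness of Trbv usage between libraries of the same mouse on different days was near 0. The median correlation of deviations over 19 genes was 0.010 over 252 pairs of the same mouse and −0.0036 over 6099 pairs of different mice, as a description over genes of unequal depth.

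Single libraries stood out with a single gene. Trbv5 held 34.26 of the Trbv counts, or 15.9% (exact 95% binomial interval 11.2 to 21.4%), in non-responder 27 on Day 17, against 4.86%, 7.22% and 9.27% in that mouse on Days 4, 9 and 24. Trbv13-1 held 16.1% (9.09 to 25.5%) in responder 5 on Day 9, against 6.77% on Day 4 and 8.83% on Day 17. Trbv13-2 held 13.5% in non-responder 28 on Day 9 and Trbv14 11.9% in responder 7 on Day 17. Of the Trav genes, Trav14d-3-dv8 held 12.8% (6.32 to 22.3%) in responder 6 on Day 17, against 1.87%, 4.92% and 2.60% on the other days, and Trav7-4, Trav19 and Trav7-2 held 10.9%, 10.0% and 9.52% in responder 2 on Day 4, responder 8 on Day 4 and responder 12 on Day 17. The remaining excesses, Trbv16 with 3 and Trav7-6 with 2 counts, were in the Day 24 library of non-responder 29. These libraries were chosen as the largest excesses over the gene's mean, so that no test stands beside them.

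Single genes were then tested within each response group between days, on all genes with enough counts, with edgeR's quasi-likelihood test, calling genes whose adjusted p did not exceed 0.05. Of the 146 members with a count, 17 passed the filter on low counts in responders and 18 in non-responders, all of them Trbv genes, so that Trav, Trgv and Trdv genes carry no call here. From Day 4 to Day 9, 10 of 17 Trbv genes fell in responders, where 27.7% of all genes were called and 14.2% were lower, and 17 of 18 fell in non-responders, where 50.8% were called and 27.5% were lower. None rose. The median log2 change of the members tested was −0.59 in responders and −0.71 in non-responders, beside 0.01 and −0.01 over all genes tested.

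Trbv3 is the clearest case in responders. Its level on Day 4 was 1.1 ± 0.34 TMM-scaled CPM (n = 15; lowest 0.605, median 1.11, highest 1.69), and on Day 9 0.620 ± 0.142 (lowest 0.306, median 0.610, highest 0.878). It was lower in 14 of 15 mice, with ranges that overlap, and the log2 change was −0.80 ± 0.15 (SE; edgeR's quasi-likelihood test, adjusted p = 6.17e-05). In non-responders Trbv3 went from 0.908 ± 0.258 to 0.598 ± 0.134 and was lower in 26 of 29 mice (−0.58 ± 0.10, adjusted p = 9.39e-08 by the same test). Trbv16 (−0.81 ± 0.18, adjusted p = 0.000638 by edgeR) and Trbv1 (−0.62 ± 0.17, adjusted p = 0.00437 by edgeR) followed in responders, and they were lower in 13 and 11 of 15 mice.

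In non-responders the smallest p-values on Day 9 were those of Trbv1, Trbv5 and Trbv3. Trbv1 stood at 0.640 ± 0.232 TMM-scaled CPM on Day 4 and 0.347 ± 0.105 on Day 9, lower in 27 of 29 mice (log2 change −0.86 ± 0.12, adjusted p = 9.54e-10 by edgeR's quasi-likelihood test). Trbv5 stood at 0.410 ± 0.139 and 0.224 ± 0.075 and was also lower in 27 of 29 mice (−0.85 ± 0.13, adjusted p = 1.09e-08 by edgeR). The only tested gene without a call in non-responders was Trbv12-2, at −0.37.

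On Day 17 the response groups parted in their calls. In responders 0 of 17 Trbv genes were called against Day 4 by edgeR's quasi-likelihood test, with 25.6% of all genes called. At an unadjusted p under 0.05 there were 3 (Trbv2, Trbv3 and Trbv29), where 36.8% of all genes were below it, and DESeq2 called 0 (26.7% of all genes called). With the mouse as a block in the edgeR fit, 1 gene was called, Trbv2, with an adjusted p of 0.0415 (27.2% of all genes called). With the ear tag series as a covariate 1 gene was lower, Trbv3, with an adjusted p of 0.0496 by edgeR against 0.0778 without it (26.4% of all genes called, 13.9% lower; 0.0496 to 0.120 over the alternatives). In non-responders 11 of 18 fell, where 46.1% of all genes were called and 24.2% were lower, led by Trbv1 (−0.51 ± 0.12, adjusted p = 0.000198), Trbv15 (−0.65 ± 0.16, adjusted p = 0.000272) and Trbv4 (−0.48 ± 0.13, adjusted p = 0.00102), all by edgeR. The medians of the members were −0.14 in responders and −0.39 in non-responders. In the test of the difference itself, by the interaction of response with Day 17, no gene among them was called.

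By Day 24, 8 of 17 Trbv genes were lower than on Day 4 in responders (17.4% of all genes called, 9.94% lower) and 13 of 18 in non-responders (48.7% called, 24.8% lower), 6 of them in both groups. With a 1.5-fold change also required, 8 were lower in responders and 0 in non-responders on Day 24, where 1.85% and 2.08% of all genes were lower by that rule, and 1, Trbv15, was lower in non-responders on Day 17, where 0.592% were. Trbv13-3 was lower in 15 of 15 responders, from 0.352 ± 0.108 to 0.182 ± 0.067 TMM-scaled CPM (log2 change −0.93 ± 0.21, adjusted p = 0.00246 by edgeR). Trbv3 and Trbv2 were each lower in 14 of 15 responders, by −0.70 ± 0.15 (adjusted p = 0.00133 by edgeR) and −0.75 ± 0.17 (adjusted p = 0.00234 by edgeR). These counts of mice are on the TMM scale. In non-haemoglobin CPM, Trbv13-3, Trbv3 and Trbv2 were each lower in 13 and higher in 2 of 15 responders. In non-responders Trbv1 (−0.56 ± 0.12), Trbv19 (−0.40 ± 0.11) and Trbv13-2 (−0.50 ± 0.15) had the smallest p-values, with adjusted p of 5.60e-05, 0.00192 and 0.00302 by edgeR. The 3 comparisons with Day 4 in each group share the Day 4 libraries.

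**Figure D4:**
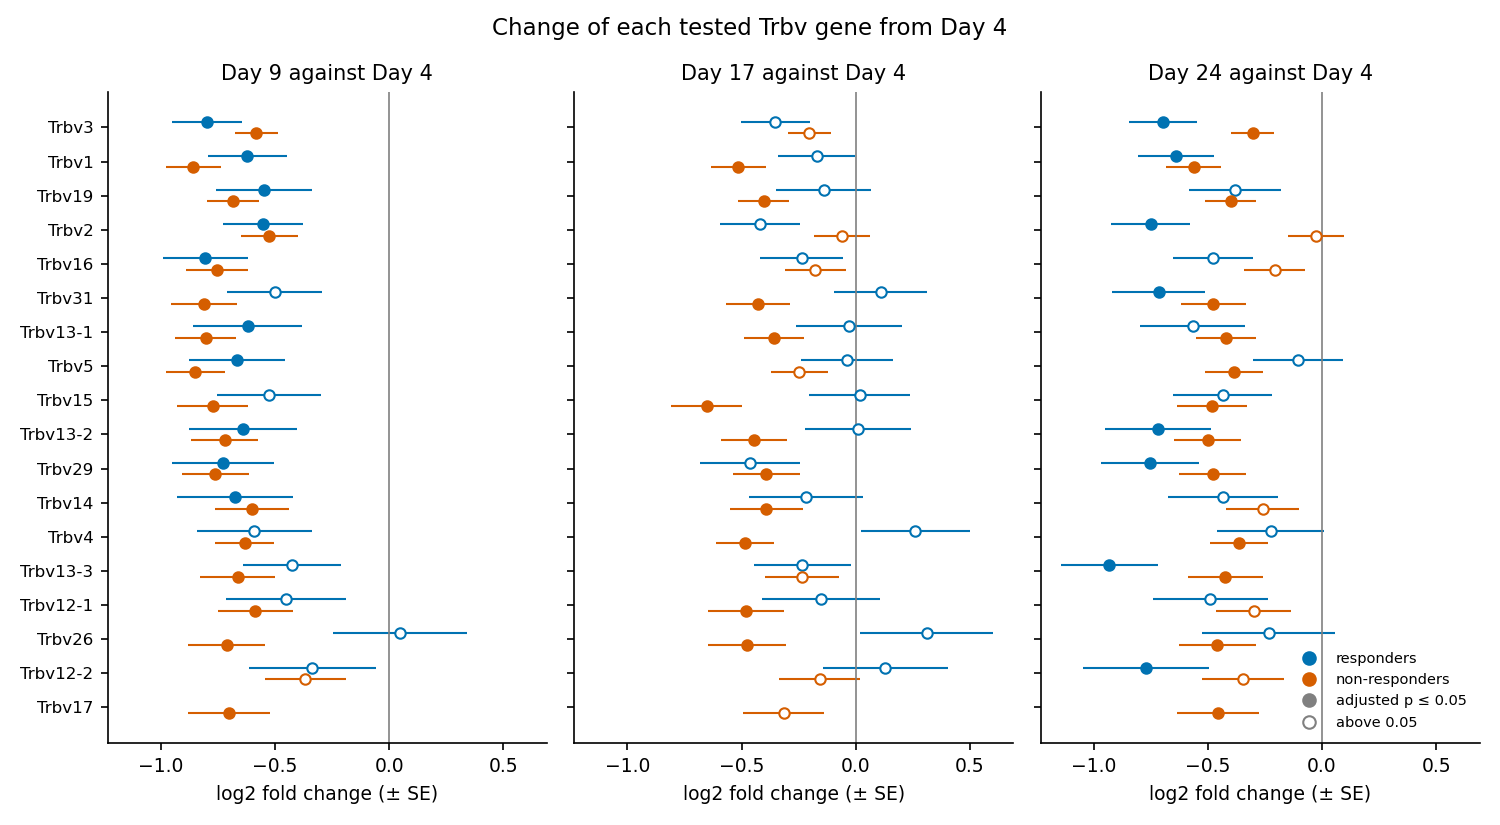
Log2 fold change of each tested Trbv gene from Day 4 to Days 9, 17 and 24 with its SE in responders (blue) and non-responders (orange); filled points have an adjusted p of at most 0.05. On Day 9 nearly all points lie below 0 in both groups (10 of 17 and 17 of 18 called), on Day 17 no responder point is called, and Trbv2 on Day 24 is called in responders and near 0 in non-responders.

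With the filter reduced to at least 1 count in any library, 145 members could be tested in non-responders, among them 115 Trav genes. From Day 4 to Day 9, 64 of them fell (44 Trav, 19 of 24 Trbv and Trgv2), where 29% of all genes were called and 15.3% were lower. With genes of identical transcripts taken as 1 value, the Trav count was 36 of 100. Among Trav genes Trav14d-1 and Trav14n-1 changed by −0.72 ± 0.16 (adjusted p = 7.61e-05 by edgeR), as an equal split of shared reads, and Trav11d by −1.98 ± 0.45 (adjusted p = 0.000178 by edgeR), with a count in 19 of 29 libraries on Day 4 and in 5 of 30 on Day 9. In responders Trav11d had a mean of 0.60 counts on Day 4 and 0.67 on Day 9 (lower in 5, higher in 4 and equal in 6 of 15 mice), and the difference between the groups' changes was not called (2.04 ± 0.76, adjusted p = 0.707 by edgeR). On Day 9 itself responders were higher than non-responders in this gene by 1.68 ± 0.52 (adjusted p = 0.0373 by edgeR), which rests on 10 counts in 5 of 15 responder libraries and 6 counts in 5 of 30 non-responder libraries. On Days 17 and 24, 26 and 28 members were lower than on Day 4 (21.7% and 21.1% of all genes called, 12.2% and 11.5% lower). In responders 13 fell on Day 9, 7 of them Trav or 4 distinct values (13.9% called, 5.98% lower), 0 on Day 17 (11.4% called, 5.59% lower; 12 at an unadjusted p under 0.05, beside 23.4% of all genes, and 0 by DESeq2 among the 17 genes of the usual filter) and 6 on Day 24 (6.03% called, 3.12% lower). For families of Trav genes with at least 178 counts, the Day 9 mean in non-haemoglobin CPM was below that of Day 4 in 15 of 15 families in both groups, with a median ratio of 0.622 (0.423 to 0.821) in responders and 0.590 (0.443 to 0.767) in non-responders. The ratio of Day 17 to Day 4 was below 1 in 11 of 15 families in responders and 15 of 15 in non-responders.

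Responders were compared with non-responders day by day, where a call needed an adjusted p not above 0.05 together with a 1.5-fold difference. With the usual filter and no covariate, no member was called on any day by edgeR's quasi-likelihood test: 0 of 18 on Day 4 (4.21% of all genes called), 0 of 16 on Day 9 (3.65%), 0 of 17 on Day 17 (0.264%) and 0 of 15 on Day 24 (0.297%). At an unadjusted p under 0.05 there were 1, 4, 7 and 1 members, where 20.7%, 25.1%, 20.6% and 24.3% of all genes were below it. DESeq2 called 0 members on Days 4, 9 and 24 (4.45%, 3.74% and 0.425% of all genes called) and 2 on Day 17 (0.567% of all genes called), Trbv4 and Trbv31, both higher in responders. With the ear tag series, which is unbalanced between the groups, as a covariate, edgeR called 1 of 18 members on Day 4 (4.91% of all genes called) and 0 on Days 9, 17 and 24 (2.17%, 0% and 0.0241%), where 4, 5 and 1 members were at an unadjusted p under 0.05 beside 18.1%, 10.2% and 17.8% of all genes. The gene called on Day 4 was Trbv13-3, higher in responders by 0.59 ± 0.20 (adjusted p = 0.0482 by edgeR) against 0.29 ± 0.19 without the covariate (adjusted p = 0.376 by edgeR; 0.0482 to 0.450 over the alternatives). With at least 1 count in any library as the filter, edgeR called 1 of 144 members on Day 4 (2.34% of all genes called), 2 of 143 on Day 9 (2.39%), 0 of 140 on Day 17 (0.302%) and 0 of 139 on Day 24 (0.182%). On Days 17 and 24, 14 and 7 members were at an unadjusted p under 0.05, beside 15.7% and 15.9% of all genes. The gene called on Day 4 was Trav7n-6, which had 7 counts in 1 of 15 responder libraries and 0 in the 29 of non-responders, so that its call rests on a single library and no fold is given. On Day 9 Trav6-3 was lower in responders (−2.23 ± 0.63, adjusted p = 0.0198 by edgeR), with a count in 4 of 15 libraries against 22 of 30, and the other gene called was Trav11d, described above. The log2 difference was above 0 for 15 of 18, 15 of 16, 16 of 17 and 6 of 15 genes on Days 4, 9, 17 and 24, with medians of 0.14, 0.21, 0.36 and −0.04, beside −0.01, −0.02, 0.01 and −0.01 over all genes tested. These directions depended on the scale: by the group means in non-haemoglobin CPM, responders were higher for 0 of the 18, 4 of the 16, 16 of the 17 and 1 of the 15 genes. No constant, CD3 or coreceptor gene was called on any day, whereas 3 of 7 haemoglobin genes on Day 4 and 7 of 7 on Day 9 were higher in responders.

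On Day 17 the lowest adjusted p-values were those of Trbv4 and Trbv31. Trbv4 stood at 0.340 ± 0.158 TMM-scaled CPM in responders (n = 14; lowest 0.110, median 0.375, highest 0.612) and 0.212 ± 0.085 in non-responders (n = 30; lowest 0.0814, median 0.191, highest 0.479), a log2 difference of 0.63 ± 0.19 (adjusted p = 0.0600 by edgeR; 0.0354 to 0.345 over the alternatives). Trbv31 stood at 0.530 ± 0.234 (lowest 0.200, median 0.504, highest 0.946) and 0.335 ± 0.139 (lowest 0.0928, median 0.318, highest 0.579), a difference of 0.64 ± 0.20 (adjusted p = 0.0613 by edgeR; 0.0381 to 0.412 over the alternatives). For both genes the ranges overlap, and the highest responder lies above the highest non-responder. Trbv4 was called with the library of non-responder 24 counted as a responder (adjusted p = 0.0354 by edgeR; 0.474% of all genes called). On Day 9 Trbv13-3 differed by 0.50 ± 0.18 (adjusted p = 0.0612 by edgeR), and on Day 4 Trbv3 by 0.27 ± 0.14 (adjusted p = 0.240 by edgeR). On Day 24 Trbv2 was lower in responders by −0.46 ± 0.15 with an adjusted p of 0.0496 by edgeR, short of the fold change asked for (5.14% of all genes were lower by the adjusted p alone).

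The difference of the changes between the groups was tested with an interaction term of day and response, fitted to all 178 libraries. For Day 9 0 of 20 members were called by edgeR's quasi-likelihood test, with 0% of all genes called, 1 at an unadjusted p under 0.05 (Trbv26, 0.76 ± 0.33; 5.25% of all genes) and 0 by DESeq2 (0% of all genes called). For Day 17 0 of 20 were called, with 0.351% of all genes called, 4 at an unadjusted p under 0.05 (10.2% of all genes) and 0 by DESeq2 (0.65% of all genes called), the smallest p being that of Trbv4 (0.74 ± 0.25, adjusted p = 0.221 by edgeR). For Day 24 1 of 20 was called, Trbv2, with 3.76% of all genes called and 2.1% lower.

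Trbv2 stood at 0.534 ± 0.187 TMM-scaled CPM in responders on Day 4 (lowest 0.293, median 0.471, highest 0.919) and 0.313 ± 0.079 on Day 24 (lowest 0.191, median 0.312, highest 0.449). In non-responders it stood at 0.448 ± 0.166 (lowest 0.188, median 0.424, highest 1.03) and 0.419 ± 0.158 (lowest 0, median 0.414, highest 0.715). It was lower on Day 24 in 14 of 15 responders and in 17 of 29 non-responders, and the changes differed by −0.73 ± 0.21 (adjusted p = 0.0346 by edgeR; 0.0132 to 0.0647 over the alternatives). By limma's voom with the mouse as a block, a change of test as well as of blocking, the adjusted p was 0.0619. The call was then lost. As a share of the Trbv counts Trbv2 went from 6.77% ± 2.32 to 5.95% ± 1.77 in responders and from 6.10% ± 1.62 to 7.45% ± 2.80 in non-responders, differences within 1 SD. In the same contrast 2 of 5 myeloid genes (log2 differences of the list from −1.04 to −0.22) and 3 of 7 haemoglobin genes (−1.33 to −0.58) were lower in responders, and their part in the result was not tested.

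**Figure D5:**
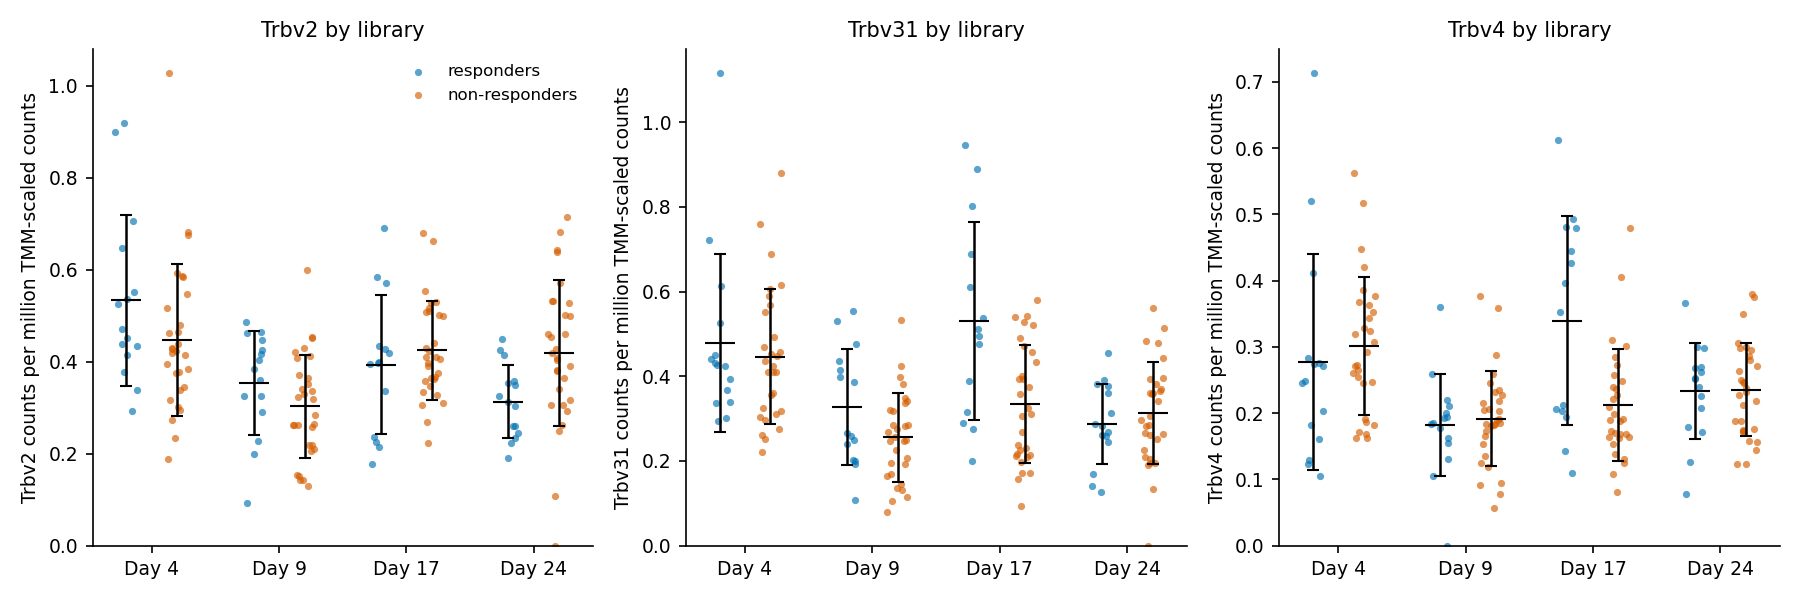
TMM-scaled CPM of Trbv2 (left), Trbv31 (middle) and Trbv4 (right) by day and response; each point is a library, with the mean and SD of its group. Trbv2 is at 0.313 in responders and 0.419 in non-responders on Day 24, and Trbv31 and Trbv4 have the higher responder means on Day 17 (0.530 against 0.335 and 0.340 against 0.212), with overlapping ranges.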

How the data were processed

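Polyadenylated RNA of whole blood, taken from behind the eye into TRIzol, served for libraries of the SMARTer mRNA-Seq kit. The submitters' processing notes name STAR and mm10; the counting tool and annotation are not given in the sources used here. The authors deposited estimated counts per gene, which need not be whole and share reads between copies, and TPM values per gene symbol. Positions, biotypes and sequences came from GENCODE M21 (GRCm38), whose 55450 gene IDs all match the table.

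Estimated counts were rounded and tested in R 4.3.3 with edgeR 4.0.16, using TMM scaling, filterByExpr with a minimum count of 10, glmQLFit and glmQLFTest, with Benjamini-Hochberg adjustment over all genes tested. Changes from Day 4 were fitted within each response group over all 4 days, and the interaction over all libraries, without a term for the mouse. Alternatives used DESeq2 1.42.0, limma 3.58.1, other filters, thresholds and denominators, haemoglobin genes removed before scaling, the ear tag series, the mouse as a block, and the doubted libraries left out or reassigned. Descriptive values were computed in Python 3.11.15 with pandas 2.3.3 and scipy 1.17.1, and figures with matplotlib 3.10.9. The tests were checked on simulated counts with known changes. Mean values per library carry the counting error of 14 to 537 Trav and 10 to 999 Trbv counts, and no Trav gene passed the usual filter within a response group.

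Libraries of the same ear tag come from 1 mouse, which pairs them. Their deviations from the group means correlated with a median of 0.023 over 264 pairs of the same mouse and 0.0040 over 6351 pairs of different mice (12275 genes).

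Named genes were the 8 Trav and 8 Trbv genes with the highest mean share, each Trgv and Trdv gene with a count, for every comparison and direction the 3 called genes of lowest p, the 5 largest single-library excesses per chain, Trav11, Trav11d, Trav1 and Trbv13-2, and genes of the receptor complex. Others, such as Trbv12-2, Trbv31 on Day 17 and Trbv24, were named after their values were seen. The members and lists were chosen with earlier results of these data known. Not analysed here are 1 non-responder's library of Day 4 and 1 responder's library of Day 17.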

Additional observations from a re-analysis of the deposited data

Results flagged for a closer look

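The change of Trbv2 from Day 4 to Day 24 differed between responders and non-responders by −0.73 on the log2 scale in the interaction test. It was the 1 such difference among 20 members tested. That share is close to the share of all genes called in the same contrast, given above. The call was lost with the mouse as a block, where the test also changed (adjusted p = 0.0619 by limma's voom). It was also lost with every gene of at least 1 count tested (adjusted p = 0.0647 by edgeR). Gamma variable genes that the annotation names Tcrg-V, outside the symbols followed here, held 1099 counts in all, above the 799 of Trgv2. Tcrg-V4 led with 649 counts in 162 libraries, followed by Tcrg-V1 with 230, Tcrg-V6 with 171, Tcrg-V3 with 26, Tcrg-V5 with 13 and Tcrg-V7 with 10, so that the Trgv values above describe 1 of 7 gamma variable genes.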

How the results depend on the processing

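Of 94 counts of called genes under the alternatives, 79 lay within 1.5 times the reported count and 15 moved. With every gene of at least 1 count tested, 1 member was called between the response groups on Day 4 (Trav7n-6) and 2 on Day 9 (Trav6-3 and Trav11d), 64, 26 and 28 fell in non-responders on Days 9, 17 and 24, and 0 differed in the change to Day 24. The tag series as a covariate gave 1 call between the groups on Day 4 (Trbv13-3, higher in responders) and 1 in responders on Day 17 (Trbv3, lower than on Day 4). On Day 17 between the groups DESeq2 gave 2 calls and the library of non-responder 24 counted as a responder 1 (Trbv4). On Day 24 the adjusted p alone gave 1 (Trbv2). Asking also for a 1.5-fold change left 1 call in non-responders on Day 17 and 0 on Day 24. The mouse as a replicate block gave 1 call in responders on Day 17 (edgeR) and 0 for the change to Day 24 (limma's voom). It moved no other count by more than 1.5 times. The cause was not tested. No named gene reversed in 183 refits, which kept edgeR's TMM scaling or that of DESeq2. Between the response groups the direction did depend on the scale. By group means in non-haemoglobin CPM, responders were higher for 0 of 18 tested genes on Day 4, against 15 as fitted. On Day 9 they were higher for 4 of 16, against 15 as fitted.

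Of 536 levels, numbers and evenness values, 514 stayed within 1 SD and 22 moved. As standardised differences on the log2 scale, Day 9 minus Day 4 in non-responders was −1.564 for Trav as CPM of all counts, −1.307 for Trav and −1.282 for Trbv as TPM, and −1.206 and −0.766 per count of Trac, Trbc1 and Trbc2 together. Per these constant counts Trbv was −0.146 for Day 9 in responders and 0.082 for Day 17 in non-responders. Responders minus non-responders with TMM scaling was 0.072 and 0.327 for Trav and 0.402 and 0.996 for Trbv on Days 4 and 9, and per these constant counts 0.249 and 0.602 for Trav and 1.049 and 1.417 for Trbv. Day 24 minus Day 4 in responders with TMM scaling was −2.382 for Trav and −2.105 for Trbv. Within the 3-digit series, responders minus non-responders was 1.577 for Trav and 1.509 for Trbv on Day 17 and −1.141 for Trgv on Day 9, and Day 17 minus Day 4 in responders was 0.666 for Trav and 1.668 for Trgv. Depth limits the Trav, Trgv and Trdv genes, none of which passed the filter within the groups. The p-values measure the spread between libraries of these mice only. In the tests over days, libraries of 1 mouse were treated as independent unless the mouse was a block.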
